A study of Mus musculus with 4 samples.

Results

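Immunoglobulin genes encode the heavy and light chains of antibodies and of the B cell receptor, and their transcripts were measured here in libraries made from sorted CD8+ T cells. The genes were chosen by name and position: every row of the count files on chromosomes 2, 14 or 22 of build hg38 with a name that begins with IGH, IGK or IGL followed by V, J or C, or with IGH followed by G, A, M, D or E, together with IGJ on chromosome 4. This gave 358 of the 64253 genes in the files. They comprised 116 heavy, 97 kappa and 75 lambda variable genes, 27 D segments, 21 J segments, 11 heavy, 1 kappa and 9 lambda constant region genes, and IGJ. A count was present in at least 1 library for 147 of them, and 211 had no count in any library.

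The cells were CD8+ T cells with high surface CD11a, an integrin chain of antigen-experienced T cells, sorted by flow cytometry from blood of patients who received an antibody against PD-1, an inhibitory receptor of activated T cells. There were 4 groups of 1 library each: a responder after therapy, a non-responder after therapy, a responder before therapy and a non-responder before therapy. Per the labels the antibody was given at intervals of 3 weeks with 4 doses in a cycle, and each library was made from 1 ng of RNA. All 4 groups are labelled as sorted CD8+ cells and share the library kit. A PD-1-positive tag stands in the names of the libraries from before therapy, and the labels do not say whether those cells were gated differently, so a difference in gate cannot be told apart from time. A treatment label places every sample after a cycle of therapy, whereas the group label places 2 libraries before it, and the group label was followed. No label says that libraries from before and after therapy came from the same patients, so time and patient cannot be told apart. The organism label names mouse, but the files hold human genes, and the data were read as human.

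In a B cell, an immunoglobulin gene is assembled by joining a variable, a J and, in the heavy chain, a D segment, and the joined exon is spliced to a constant region. The constant region sets the isotype: IGHM and IGHD are used first by naive B cells, and IGHG, IGHA and IGHE after class switching, while a light chain is either kappa or lambda. IGJ (now called JCHAIN) encodes the J chain, a small protein that links IgM and IgA units into polymers. CD8+ T cells rearrange T cell receptor genes in place of these.

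The libraries held 129773591 counts for the responder after therapy, 115446087 for the non-responder after therapy, 78912300 for the responder before therapy and 65500644 for the non-responder before therapy. Levels are given as CPM, counts scaled to one library size with TMM factors, and a floor of 3 counts is worth between 0.0235 and 0.0460 CPM in these libraries. With 1 library in each group, a comparison of 2 libraries has no replicate check and no p-value. The 95% intervals printed cover counting error only, since amplified reads without molecular identifiers are not independent molecules.

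The markers of the sort were high in every library. CD8A stood at 1560, 946, 1110 and 865 CPM in the responder after, non-responder after, responder before and non-responder before therapy. Summed over 10 monocyte and neutrophil markers, the level was 1820 CPM in the responder after therapy and 8730 CPM in the non-responder after therapy, against 109 CPM in the responder before and 180 CPM in the non-responder from before therapy. The non-responder library after therapy therefore stands apart in transcripts of other blood cells, and both libraries after therapy exceed both from before.

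All immunoglobulin genes together took 0.00518% of the counts (95% Clopper-Pearson interval 0.00506 to 0.00531%) of the responder after therapy and 0.00775% (0.00759 to 0.00791%) of the non-responder after therapy. Before therapy they took 0.0169% (0.0166 to 0.0172%) in the responder and 0.0126% (0.0123 to 0.0129%) in the non-responder. These totals include IGKV1-8 and IGKV3-11, kappa rows that overlap the kappa constant gene IGKC, so kappa reads may enter more than once. Those rows held 643 of 6722 immunoglobulin counts in the responder after and 1970 of 8946 in the non-responder after therapy. Before therapy they held 3569 of 13326 in the responder and 2150 of 8241 in the non-responder. The intervals take no account of this. Immunoglobulin transcripts were thus scarce in all 4 libraries, and a smaller part of both libraries from after therapy than of both from before. In bulk samples, fewer cells of a type and less RNA per cell cannot be told apart.

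Constant region genes, which carry the isotype, were lower after therapy in both patient groups. Their summed level was 15.6 CPM in the responder after therapy, against 71.5 CPM in the responder before therapy, a log2 ratio of -2.20 (95% interval -2.27 to -2.13). In the non-responders the sum was 25.1 CPM after therapy, against 62.0 CPM before therapy, a log2 ratio of -1.30 (-1.37 to -1.23). Between patients, the responder sum was lower than the non-responder sum after therapy, with a log2 ratio of -0.69 (-0.78 to -0.61), and higher before therapy, with a log2 ratio of 0.20 (0.15 to 0.26).

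**Figure D1:**
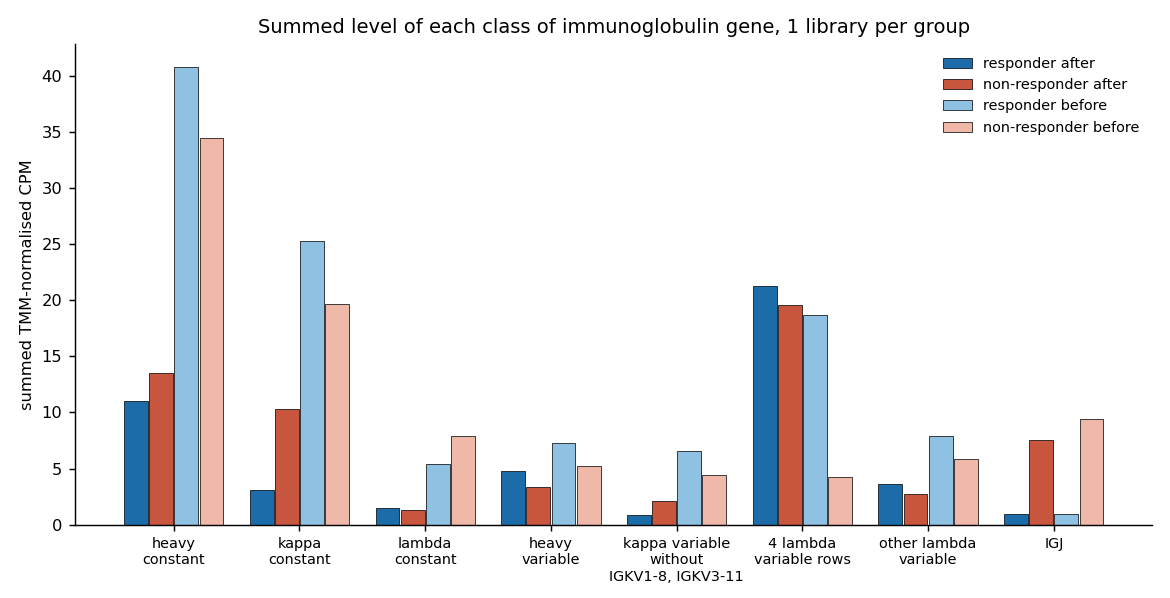
Summed TMM-normalised CPM of each class of immunoglobulin gene (y axis, linear), with 1 bar per library. The heavy, kappa and lambda constant classes are lower in both libraries after therapy than in both before therapy, while the 4 lambda variable rows reach 21.3 CPM in the responder after, 19.6 CPM in the non-responder after and 18.7 CPM in the responder before therapy, and 4.25 CPM in the non-responder of that time.

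IGHM, on chr14:105854220-106235572, encodes the mu chain of IgM. It stood at 6.49 CPM in the responder after therapy and 6.76 CPM in the non-responder after therapy, against 28.5 CPM in the responder before and 16.5 CPM in the non-responder from before therapy. Both values after therapy were close to each other and below both values before therapy. The log2 ratio of after to before was -2.13 (-2.25 to -2.02) in the responders and -1.28 (-1.42 to -1.15) in the non-responders.

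IGHD, the constant gene of the delta chain that naive B cells make together with mu, had 2.70 CPM in the responder after therapy and 0.840 CPM in the non-responder after therapy, against 5.56 CPM in the responder before and 2.79 CPM in the non-responder from before therapy. It was also lower after therapy in both patient groups. The responder exceeded the non-responder at both times, with log2 ratios of 1.68 (1.35 to 2.03) after and 0.99 (0.74 to 1.25) before therapy.

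The gamma genes encode the IgG subclasses. IGHG1 had 1.15 CPM in the responder after therapy and 1.82 CPM in the non-responder after therapy, against 3.54 CPM in the responder before and 7.05 CPM in the non-responder from before therapy. IGHG2 had 2 counts in each library after therapy, against 35 counts in the responder before and 163 counts in the non-responder before therapy. The log2 ratio of IGHG2 after to before therapy was -4.44 (-7.84 to -2.78) in the responders and -6.81 (-10.19 to -5.25) in the non-responders. IGHG3 had 9 counts in the responder after therapy and 52 in the non-responder after therapy, against 137 in the responder before and 148 in the non-responder before therapy. IGHG4 had 2 and 5 counts after therapy in the responder and the non-responder, against 10 and 30 counts before therapy in the responder and the non-responder. Each of the 4 gamma genes was lower in both libraries after therapy than in both before therapy, and the non-responder had at least as many IGHG counts as the responder at each time. These genes are near-identical copies, so how counts split among them is uncertain, and their sum is the firmer value: 1.25 CPM in the responder after and 2.35 CPM in the non-responder after therapy, against 5.73 CPM in the responder before and 12.3 CPM in the non-responder from before therapy. The pseudogene IGHGP had at most 10 counts in any library.

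The alpha genes, which encode IgA, were lower in the responder than in the non-responder as a sum at both times. IGHA1 had 0.494 CPM in the responder after therapy and 1.59 CPM in the non-responder after therapy, against 0.685 CPM in the responder before and 2.55 CPM in the non-responder from before therapy. It was lower in the responder at both times, with log2 ratios of -1.68 (-2.12 to -1.26) after and -1.89 (-2.35 to -1.45) before therapy. IGHA2 had 4 counts in the responder after therapy and 222 counts in the non-responder after therapy, against 19 in the responder before and 20 in the non-responder before therapy. Only the non-responder after therapy was high in IGHA2, and without that library its counts ranged from 4 to 20. IGHA1 and IGHA2 are also near-identical. Their sum was 0.526 CPM in the responder after and 3.57 CPM in the non-responder after therapy, against 0.913 CPM in the responder before and 2.85 CPM in the non-responder from before therapy.

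IGHE and the pseudogene IGHEP1, of the epsilon class, had no count in any library. For IGHE this allows, at 3 counts, a share of heavy constant counts of up to 0.215% in the responder after, 0.198% in the non-responder after, 0.0883% in the responder before and 0.133% in the non-responder before therapy.

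**Figure D2:**
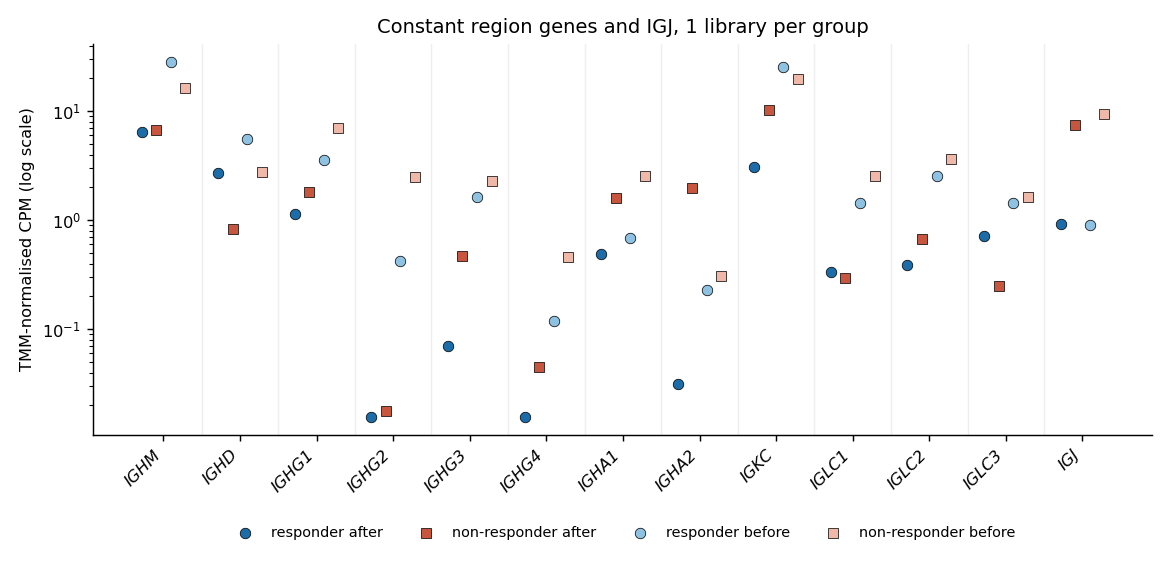
TMM-normalised CPM (y axis, log scale) of 12 constant region genes with a count in every library, and of IGJ, with 1 point per library. IGHM, the 4 IGHG genes, IGKC and IGLC1 to IGLC3 have both points from after therapy below both from before therapy, IGHA1 and IGJ have both responder points below both non-responder points, and IGHA2 is high in the non-responder after therapy alone.

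IGKC, the single constant gene of kappa light chains, stood at 3.10 CPM in the responder after therapy and 10.3 CPM in the non-responder after therapy, against 25.3 CPM in the responder before and 19.7 CPM in the non-responder from before therapy. The responder was thus below the non-responder after therapy, with a log2 ratio of -1.72 (-1.89 to -1.56), and above it before therapy, with a log2 ratio of 0.36 (0.26 to 0.46). After therapy IGKC was 8.15-fold lower than before in the responders and 1.92-fold lower in the non-responders.

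Lambda light chains are encoded by several constant genes. IGLC2 had 0.392 CPM in the responder after therapy and 0.670 CPM in the non-responder after therapy, against 2.56 CPM in the responder before and 3.68 CPM in the non-responder from before therapy. IGLC1 had 0.337 CPM in the responder after and 0.295 CPM in the non-responder after therapy, against 1.44 CPM in the responder before and 2.53 CPM in the non-responder from before therapy. IGLC3 had 0.722 CPM in the responder after and 0.250 CPM in the non-responder after therapy, against 1.43 CPM in the responder before and 1.63 CPM in the non-responder from before therapy. All 3 were lower in both libraries after therapy. IGLC1 to IGLC3 are near-identical, so the sum over the lambda constant genes is given too: 1.5 CPM in the responder after and 1.35 CPM in the non-responder after therapy, against 5.45 CPM in the responder before and 7.87 CPM in the non-responder from before therapy. IGLC6 had 1, 14, 0 and 2 counts and IGLC7 had 5, 1, 0 and 0 counts in the responder after, non-responder after, responder before and non-responder before therapy, and the pseudogenes IGLC4 and IGLC5 had none.

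The make-up of the constant region counts differed between libraries. The intervals on these shares cover counting error of reads only, and since amplified reads are not independent molecules, they may be too narrow. IgM, the counts of IGHM, made up 59.2% of heavy constant counts (56.6 to 61.8%) in the responder after therapy and 49.9% (47.4 to 52.5%) in the non-responder after therapy, against 69.8% (68.2 to 71.3%) in the responder before and 47.7% (45.6 to 49.8%) in the non-responder before therapy. The IgM share was higher in the responder at both times. IgD made up 24.6% (22.4 to 27.0%) in the responder after and 6.20% (5.04 to 7.53%) in the non-responder after therapy, against 13.6% (12.5 to 14.8%) in the responder before and 8.09% (6.99 to 9.29%) in the non-responder before therapy. It too was higher in the responder at both times.

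The switched classes had the opposite order between patients. IgG made up 11.4% (9.76 to 13.2%) in the responder after and 17.3% (15.5 to 19.4%) in the non-responder after therapy, against 14.0% (12.9 to 15.3%) in the responder before and 35.6% (33.6 to 37.6%) in the non-responder before therapy. IgA made up 4.80% (3.74 to 6.05%) in the responder after and 26.4% (24.2 to 28.7%) in the non-responder after therapy, against 2.24% (1.77 to 2.79%) in the responder before and 8.26% (7.16 to 9.48%) in the non-responder before therapy. Both shares were higher in the non-responder at each time. No interval of a responder overlaps that of the non-responder of the same time, but these intervals hold no spread between patients or libraries. Per base of coding length IgG made up 5.60% in the responder after and 8.62% in the non-responder after therapy, against 10.7% in the responder before and 31.0% in the non-responder before therapy. Per base IgA made up 9.37% in the responder after and 45.3% in the non-responder after therapy, against 4.59% in the responder before and 15.8% in the non-responder before therapy. The order between patients is the same on either scale. With 1 library a group, this order cannot be told apart from a difference between patients.

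**Figure D3:**
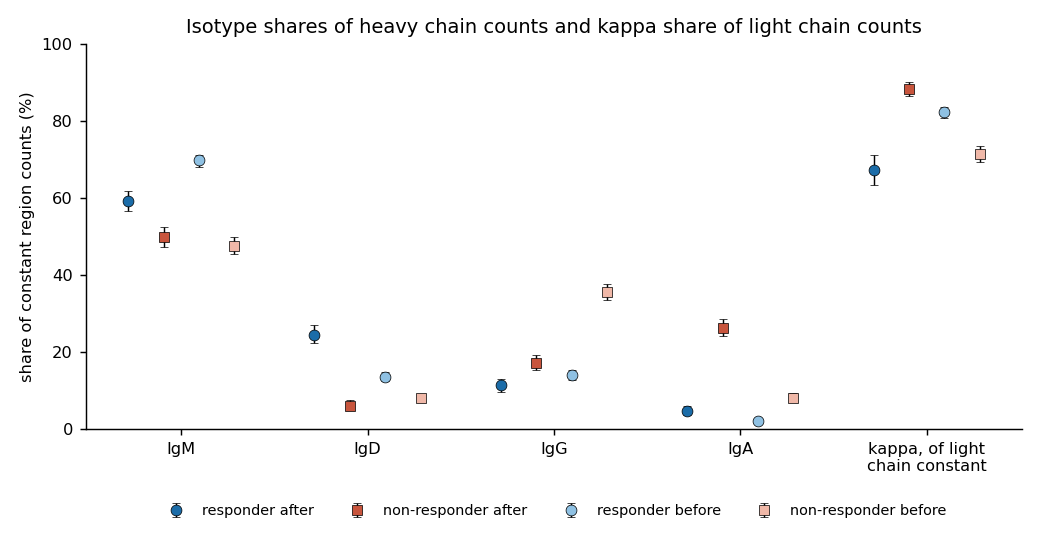
Share of heavy chain constant region counts by isotype, and kappa share of light chain constant region counts (y axis, percent), with 1 point per library and 95% Clopper-Pearson intervals for counting error. IgM and IgD shares are higher in the responder at both times, and IgG and IgA shares are higher in the non-responder.

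The kappa share of light chain constant counts was 67.4% (63.4 to 71.2%) in the responder after and 88.4% (86.5 to 90.1%) in the non-responder after therapy, against 82.3% (80.7 to 83.7%) in the responder before and 71.4% (69.3 to 73.5%) in the non-responder before therapy. The order of responder and non-responder was thus opposite at the 2 times. Per base of the coding length in the files, the kappa share was 35.6% in the responder after and 66.2% in the non-responder after therapy, against 55.4% in the responder before and 40.1% in the non-responder before therapy. The order is the same, but the size of the share rests on the gene model: the IGKC row, chr2:88857161-89085723, runs far into the kappa variable region, is given 1720 coding bases and holds 19 other immunoglobulin rows inside its span. Spans of IGHM, IGHG1 and IGHG3 likewise run into the heavy variable region. In all, 196 of the 358 genes overlap another row of the files.

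The sums over variable genes rest on a few rows. IGKV1-8 on chr2:88857361-88992931 and IGKV3-11 on chr2:88857361-89027731 start at the same base, 200 bases inside the start of IGKC, so that reads of the kappa constant region can be counted for them. IGKV1-8 held 79.7%, 85.7%, 80.3% and 83.9% as many counts as IGKC in the responder after, non-responder after, responder before and non-responder before therapy. IGKV3-11 held 83.0%, 85.9%, 89.3% and 83.9% as many. These rows together made up 85.5% (82.8 to 87.9%) of all kappa variable counts in the responder after and 89.3% (87.9 to 90.5%) in the non-responder after therapy, against 86.8% (85.7 to 87.8%) in the responder before and 88.1% (86.7 to 89.3%) in the non-responder before therapy. Their counts cannot be told apart from those of IGKC, and they are left out of the kappa variable values that follow. This choice was made after their values were seen.

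The remaining 95 kappa variable genes, which encode the antigen-binding part of kappa chains, summed to 0.855 CPM in the responder after and 2.12 CPM in the non-responder after therapy, against 6.53 CPM in the responder before and 4.46 CPM in the non-responder from before therapy. They had the order of IGKC: lower after therapy in both patient groups, with log2 ratios of -2.93 (-3.24 to -2.63) in the responders and -1.07 (-1.33 to -0.82) in the non-responders, and lower in the responder after therapy but not before. Their counts per IGKC count were 0.276 in the responder after and 0.206 in the non-responder after therapy, against 0.259 in the responder before and 0.227 in the non-responder before therapy. Some of the 95 genes, such as IGKV4-1 and IGKV3-15, also overlap the span of IGKC. Neither the shared order nor these ratios are therefore independent of IGKC.

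Different kappa genes led in different libraries. IGKV3-20 led in the non-responder after therapy, with 17 counts in the responder after and 152 in the non-responder after therapy, against 93 in the responder before and 58 in the non-responder before therapy. In the non-responder after therapy it made up 64.1% (57.7 to 70.2%) of the counts of those 95 genes. IGKV3-15 led in both responder libraries, with 40 counts in the responder after and 19 in the non-responder after therapy, against 119 in the responder before and 27 in the non-responder before therapy. It made up 36.7% (27.7 to 46.5%) in the responder after and 21.9% (18.5 to 25.6%) in the responder before therapy. IGKV4-1 led in the non-responder before therapy with 96 counts or 33.0% (27.6 to 38.7%), against 22 counts in each library after therapy and 38 in the responder before therapy.

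Heavy variable genes summed to 4.76 CPM in the responder after and 3.39 CPM in the non-responder after therapy, against 7.28 CPM in the responder before and 5.24 CPM in the non-responder from before therapy. The after-to-before log2 ratio was -0.61 (-0.78 to -0.45) in the responders and -0.63 (-0.85 to -0.42) in the non-responders. The log2 ratio of responder to non-responder was 0.49 (0.31 to 0.68) after and 0.47 (0.28 to 0.67) before therapy, and the one after therapy rests on a single pseudogene row, IGHVIII-67-4. Heavy variable counts per heavy constant count were 0.435 in the responder after and 0.250 in the non-responder after therapy, against 0.178 in the responder before and 0.152 in the non-responder before therapy.

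A single row carried much of the heavy variable sum of the responder after therapy. IGHVIII-67-4, a pseudogene on chr14:106695102-106695397, had 206 counts in the responder after and 11 in the non-responder after therapy, against 3 in the responder before and none in the non-responder before therapy. It made up 33.9% (30.2 to 37.9%) of heavy variable counts in the responder after therapy. Without it, an alternative chosen after seeing the data, heavy variable genes summed to 3.15 CPM in the responder after and 3.29 CPM in the non-responder after therapy, with a log2 ratio of -0.06 (-0.27 to 0.15). The after-to-before log2 ratio in the responders was then -1.20 (-1.39 to -1.02), and heavy variable counts per heavy constant count in the responder after therapy were 0.287. With rows left out whose names mark them as pseudogenes, the leading heavy gene of that library held 13.5%. Pseudogenes with ordinary names, such as IGHV3-32, stayed in.

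The other leading heavy variable genes differed from library to library. IGHV3-23, a gene widely used by human B cells, had 20 counts in the responder after and 88 in the non-responder after therapy, against 81 in the responder before and 18 in the non-responder before therapy. It led in the non-responder after therapy with 23.2% (19.1 to 27.8%) of heavy variable counts. IGHV4-34 led in the responder before therapy with 16.8% (13.9 to 20.1%), and had 22 counts in the responder after and 43 in the non-responder after therapy, against 102 in the responder before and 4 in the non-responder before therapy. IGHV3-30 led in the non-responder before therapy with 17.0% (13.1 to 21.4%), and had 3 counts in the responder after and 47 in the non-responder after therapy, against 35 in the responder before and 58 in the non-responder before therapy. No library shared its leading heavy gene with another.

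Some heavy variable genes were counted mostly in one library or one patient group. IGHV4-4 had 48 counts in the non-responder after therapy and none in the other 3 libraries, so it was at least 18.2-fold lower in the responder after therapy and, in the non-responders, at least 9.32-fold higher after than before, both against a floor of 3 counts per library. IGHV1-3 had no count in the responder after and 32 in the non-responder after therapy, against 4 in the responder before and 46 in the non-responder before therapy. IGHV3-33 had 54 counts in the responder after and 6 in the non-responder after therapy, against 41 in the responder before and 5 in the non-responder before therapy. The log2 ratio of responder to non-responder for IGHV3-33 was 2.88 (1.77 to 4.49) after and 2.56 (1.34 to 4.38) before therapy. IGHV4-39 had 26 counts in the responder after and 24 in the non-responder after therapy, against 58 in the responder before and none in the non-responder before therapy, and IGHV1-2 had 10 and 8 counts after therapy, against 48 and 45 before therapy, in the responder and the non-responder. The pseudogene IGHV3-32 had 39 counts in the responder after and 14 in the non-responder after therapy, against 2 in the responder before and none in the non-responder before therapy.

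Lambda variable genes were the only large class without a lower sum after therapy in the non-responders. They summed to 24.9 CPM in the responder after and 22.3 CPM in the non-responder after therapy, against 26.6 CPM in the responder before and 10.1 CPM in the non-responder from before therapy. The log2 ratio of after to before was -0.09 (-0.17 to -0.02) in the responders and 1.14 (1.02 to 1.27) in the non-responders. This sum rested on 4 rows, singled out after their values were seen: IGLV2-14, IGLV3-13, IGLV3-12 and IGLV5-52 held 85.4% (84.1 to 86.6%) of lambda variable counts in the responder after and 87.7% (86.3 to 88.9%) in the non-responder after therapy, against 70.3% (68.4 to 72.2%) in the responder before and 42.1% (38.3 to 46.0%) in the non-responder before therapy.

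IGLV2-14, on chr22:22758700-22759218, stood at 8.57 CPM in the responder after and 8.10 CPM in the non-responder after therapy, against 9.43 CPM in the responder before and 2.24 CPM in the non-responder from before therapy. IGLV3-12 stood at 4.63 CPM in the responder after and 4.84 CPM in the non-responder after therapy, against 2.79 CPM in the responder before and 0.230 CPM in the non-responder from before therapy. IGLV3-13 stood at 3.41 CPM in the responder after and 3.61 CPM in the non-responder after therapy, against 2.38 CPM in the responder before and 0.353 CPM in the non-responder from before therapy. All 3 lie side by side and shared one pattern: similar in both libraries after therapy and lowest in the non-responder before therapy. IGLV5-52, on chr22:22318727-22319226 and away from them, stood at 4.65 CPM in the responder after and 3.00 CPM in the non-responder after therapy, against 4.08 CPM in the responder before and 1.43 CPM in the non-responder from before therapy.

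These rows share their place with rows that are not immunoglobulin genes, named here after their values were seen. IGLV5-52 lies inside BMS1P20, a pseudogene row that stood at 20.0 CPM in the responder after and 15.1 CPM in the non-responder after therapy, against 16.5 CPM in the responder before and 13.8 CPM in the non-responder from before therapy. IGLV2-14 overlaps AC244250.3, a row of 95 bases with 356 counts in the responder after and 333 in the non-responder after therapy, against 197 in the responder before and 36 in the non-responder before therapy. These raw counts follow the order of library depth. In CPM, AC244250.3 stood at 2.79 in the responder after and 2.98 in the non-responder after therapy, against 2.37 in the responder before and 0.552 in the non-responder before therapy. IGLV3-12 and IGLV3-13 have that order in CPM too. IGLV2-14, which AC244250.3 overlaps, does not: it was highest in the responder before therapy, at 9.43 CPM. Which transcript those reads came from was not tested.

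Without the 4 rows, the other 71 lambda variable genes summed to 3.63 CPM in the responder after and 2.75 CPM in the non-responder after therapy, against 7.88 CPM in the responder before and 5.84 CPM in the non-responder from before therapy. Their after-to-before log2 ratio was -1.12 (-1.29 to -0.95) in the responders and -1.09 (-1.31 to -0.87) in the non-responders, lower after therapy in both as for the other classes. IGLV2-11 was among them, with 0.534 CPM in the responder after and 0.411 CPM in the non-responder after therapy, against 2.35 CPM in the responder before and 1.78 CPM in the non-responder from before therapy. Lambda variable counts per lambda constant count were 16.6 in the responder after and 16.5 in the non-responder after therapy, against 4.87 in the responder before and 1.28 in the non-responder before therapy. Without the 4 rows they were 2.42 in the responder after and 2.04 in the non-responder after therapy, against 1.44 in the responder before and 0.743 in the non-responder before therapy.

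**Figure D4:**
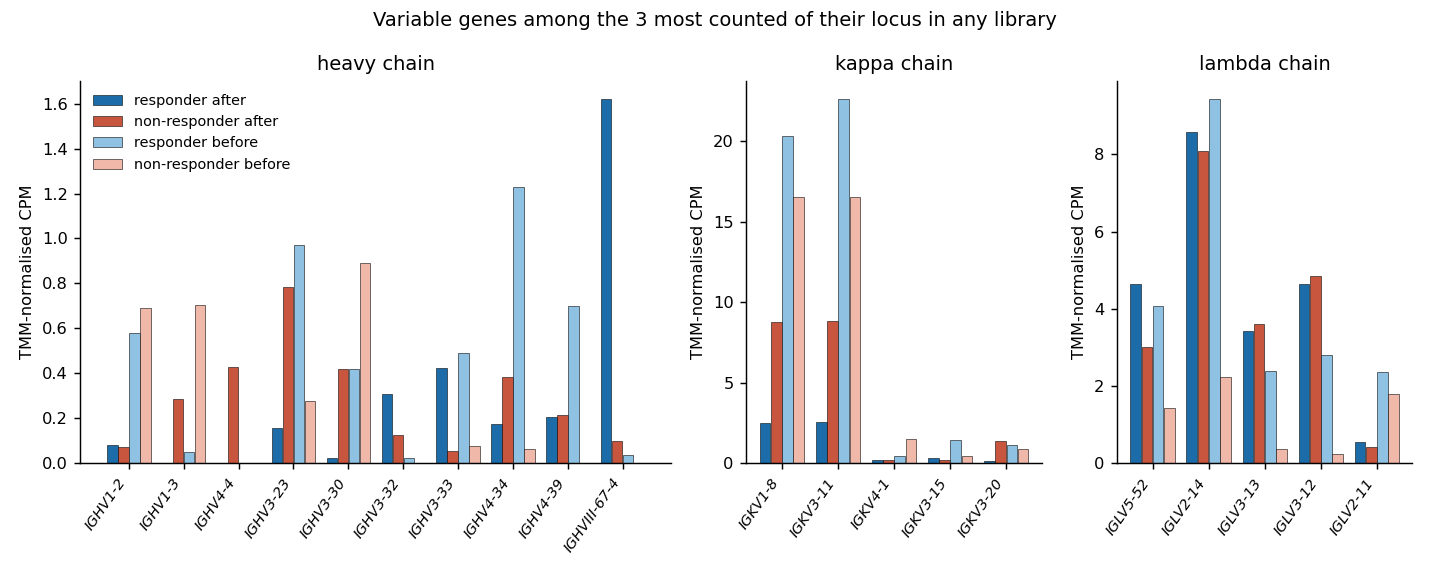
TMM-normalised CPM (y axis, linear, with its own scale in each panel) of the variable genes that were among the 3 most counted of their locus in at least 1 library, in order along the chromosome, with 1 bar per library. IGKV1-8 and IGKV3-11 have the profile of IGKC, IGLV2-14, IGLV3-13 and IGLV3-12 are lowest in the non-responder before therapy, and IGHVIII-67-4 is high in the responder after therapy alone.

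Few variable genes were found in all libraries. Of 116 heavy variable genes, 46 had a count in at least 1 library, 8 had one in all 4 and 14 in exactly 1. Of 97 kappa variable genes, 30 had a count in at least 1 library, 7 in all 4 and 16 in exactly 1. Of 75 lambda variable genes, 34 had a count in at least 1 library, 11 in all 4 and 12 in exactly 1. The responder library before therapy held the most, with a count for 35 heavy, 27 kappa and 28 lambda genes, although it was not the deepest. Over all genes of the files it also held the most, with a count for 30272. The others had 29311 in the responder after, 29459 in the non-responder after and 26352 in the non-responder before therapy. How many of all genes with as few counts were found in every library was not computed, so scarce sharing is not shown to be particular to variable genes.

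At a minimum of 10 counts, 15 heavy variable genes were found in the responder after therapy and 10 in the non-responder after therapy, and the 6 they shared are 40.0% of the responder's and 60.0% of the non-responder's. Before therapy 18 were found in the responder and 11 in the non-responder, and the 5 shared are 27.8% of the responder's and 45.5% of the non-responder's. Within the responders 7 genes were shared between the 15 after and the 18 before therapy, and within the non-responders 3 between the 10 after and the 11 before therapy. The heavy genes above this minimum thus overlapped in part between any of these pairs. The overlap over all genes with as few counts was not computed, so partial overlap is not shown to be particular to heavy variable genes.

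J segments, short pieces joined to a variable gene, summed to 92 counts in the responder after and 201 in the non-responder after therapy, against 361 in the responder before and 142 in the non-responder before therapy. IGKJ1 had 21 counts in the responder after and 110 in the non-responder after therapy, against 40 in the responder before and 19 in the non-responder before therapy. IGKJ4 had 6 counts in the responder after and 11 in the non-responder after therapy, against 122 in the responder before and 21 in the non-responder before therapy. Each was high in a single library: IGKJ1 in the non-responder after and IGKJ4 in the responder before therapy. D segments were nearly absent, with 2 counts of IGHD7-27 in the non-responder after therapy, 5 counts of IGHD2-8 in the responder before therapy and none of the other 25.

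IGJ, on chr4:70655541-70681817, differed far more between responder and non-responder libraries than between libraries from before and after therapy. It stood at 0.926 CPM in the responder after and 7.55 CPM in the non-responder after therapy, against 0.913 CPM in the responder before and 9.38 CPM in the non-responder from before therapy. The responder-to-non-responder log2 ratio was -3.02 (-3.32 to -2.75) after and -3.35 (-3.73 to -3.02) before therapy. The after-to-before log2 ratio was 0.02 (-0.41 to 0.46) in the responders and -0.31 (-0.47 to -0.16) in the non-responders. That IGJ is lower in both responders was known when these genes were chosen, and it is given to set it beside its partners.

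IgM and IgA are the classes that carry the J chain, and their constant genes did not share the profile of IGJ as one. IGHA1 was lower in the responder at both times, as IGJ was. IGHM was not: its responder-to-non-responder log2 ratio was -0.06 (-0.20 to 0.08) after and 0.79 (0.68 to 0.89) before therapy. ENAM, the row that overlaps IGJ, had 19 counts in the responder after and 121 in the non-responder after therapy, against 39 in the responder before and 133 in the non-responder before therapy. UTP3, its neighbour, stood at 8.51 CPM in the responder after and 7.01 CPM in the non-responder after therapy, against 6.09 CPM in the responder before and 6.78 CPM in the non-responder from before therapy. Both neighbours were named after their values were seen. ENAM had the order of IGJ between responder and non-responder at both times, and UTP3 did not.

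**Figure D5:**
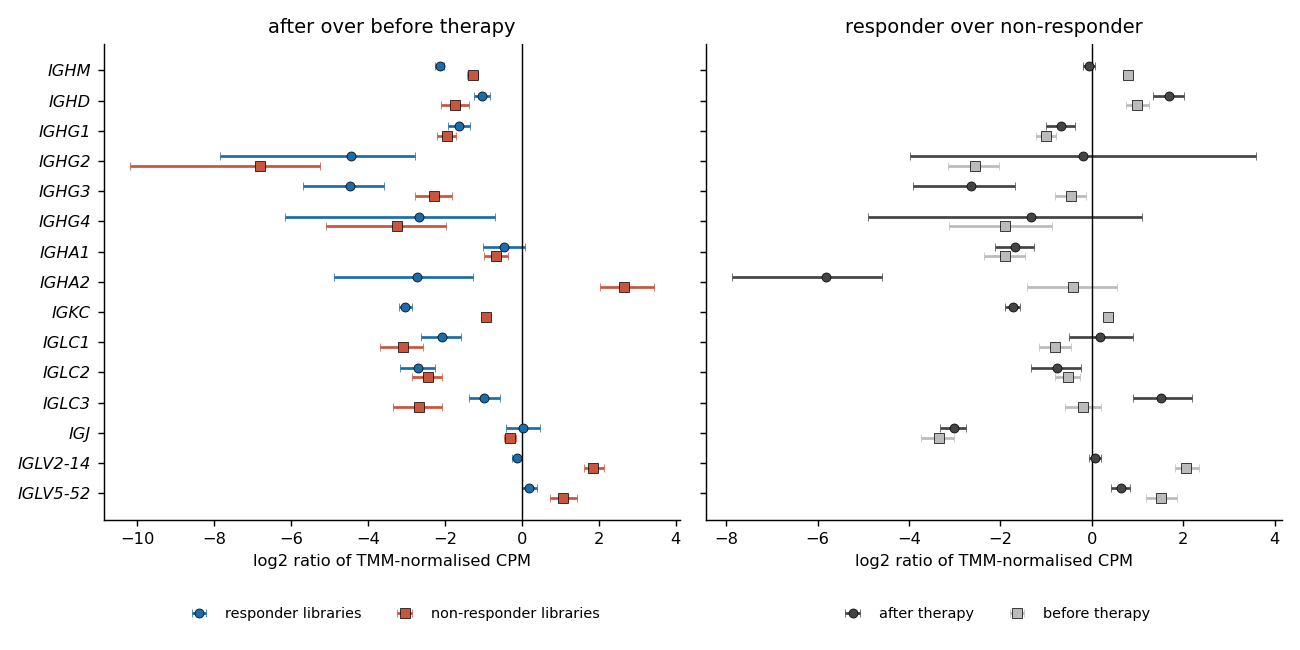
Log2 ratios of TMM-normalised CPM (x axis) with 95% intervals for counting error, for constant region genes, IGJ and the lambda variable rows IGLV2-14 and IGLV5-52, as after over before therapy in each patient group (left panel) and as responder over non-responder at each time (right panel). IGHM, IGHD, the IGHG genes, IGKC and IGLC1 to IGLC3 lie left of 0 in both patient groups of the left panel, and IGHG1, IGHG3, IGHA1, IGLC2 and IGJ lie left of 0 with their intervals at both times of the right panel.

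Most of these genes were too low for a count at 5 CPM or more. In the comparison of the responder with the non-responder after therapy, 6 of them reached 5 CPM in either library, and 4 of the 6 were at least 2-fold lower in the responder (IGKC, IGKV3-11, IGKV1-8 and IGJ) and none 2-fold higher, beside 8.86% lower and 5.79% higher of all 12434 genes at that level. Before therapy 8 reached 5 CPM, of which IGLV2-14 was 2-fold higher and IGJ 2-fold lower in the responder, beside 11.5% of all genes higher and 8.93% lower. Of the 4 genes apart after therapy, 3 are the kappa rows with overlapping spans.

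For after against before therapy in the responders, 6 reached 5 CPM and 5 of them were at least 2-fold lower after therapy (IGKC, IGKV3-11, IGKV1-8, IGHD and IGHM), beside 4.7% of all genes lower and 8.5% higher. In the non-responders, 7 reached 5 CPM, of which IGLV2-14 was 2-fold higher and IGHG1 and IGHM 2-fold lower after therapy, beside 15.6% of all genes higher and 8.25% lower. A gene that reaches the minimum through its higher library is more likely to be counted as apart, for these genes as for all genes.

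At a minimum of 1 CPM in the higher library of a pair, 21 immunoglobulin genes could be compared in the responders. After therapy 14 of the 21 were 2-fold lower and 1 higher, beside 10.5% of all genes lower and 10.6% higher. Their median log2 ratio was -2.13, beside 0.02 over all genes. In the non-responders 22 could be compared, of which 11 were lower and 5 higher after therapy, beside 14.1% of all genes lower and 19.1% higher. Their median was -1.11, beside 0.05 over all genes. The 5 that were higher were IGHA2, IGLV5-52, IGLV2-14, IGLV3-13 and IGLV3-12. For the responder against the non-responder, 16 could be compared after therapy, with 2 higher and 7 lower in the responder and a median of -0.38, beside 7.99% of all genes higher, 14.0% lower and a median of 0.02. Before therapy 25 could be compared, with 8 higher and 4 lower and a median of 0.36, beside 15.8% higher, 14.0% lower and a median of 0.04. A gene that passes this minimum only through its higher library is more likely to be counted as apart. The values over all genes and over the marker lists below share this limit. The 14 lower in the responders include rows with overlapping spans, such as IGKC, IGKV1-8, IGKV3-11 and IGKJ4, so they are not independent.

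The only p-values come from a model that adds the effects of response and time across the 4 libraries, and they measure no more than the spread between these libraries. In edgeR's quasi-likelihood test with Benjamini-Hochberg adjustment over 24113 genes, 59 immunoglobulin genes passed the filter on low counts, and none was called for time, beside 0.0% of all genes called. At an unadjusted p under 0.05, 10 of the 59 were lower after therapy and none was higher, beside 11.3% of all genes that had such a p and 4.43% that were lower with it. The 10 were IGHM, IGHG1, IGHG2, IGHG3, IGKC, IGKV1-8, IGKV3-11, IGKV1-5, IGLC1 and IGLC2. The median fitted log2 ratio over the 59 was -1.71, beside 0.03 over all genes tested.

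Among these, IGHM had a fitted log2 ratio of after to before therapy of -1.71 ± 0.39 (SE), with an adjusted p = 0.409 in edgeR's test. IGHG2 had the largest fitted ratio of the 10, -5.86 ± 1.34 on the log2 scale, with an adjusted p = 0.409. IGKC had -1.98 ± 0.67 on the log2 scale, with an adjusted p = 0.427. The fits that left out 1 library modelled time alone, so their ratios are not the additive fit repeated. Without the responder library after therapy, the ratio of IGKC in such a fit was -1.12. Without the non-responder library after therapy, the richest in monocyte transcripts, the fitted ratio was -1.77 for IGHM and -2.84 for IGKC. The responder library after therapy, at 1820 CPM of monocyte and neutrophil markers, was also richer in them than either earlier library. Leaving out a library therefore cannot separate time from monocyte content, and the part of monocyte content in these ratios was not tested. DESeq2 on the same design called IGHG2, IGHM, IGKC, IGKV1-8 and IGKV3-11, all lower after therapy, beside 6.26% of all genes called by it and 1.82% called lower. Limma-voom called none of the 59, beside 0.00829% of all genes. IGKV1-8 and IGKV3-11 add nothing to IGKC here, since their counts cannot be told apart from its own.

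For response, edgeR's test called 0 of the 24113 genes, while 2119 or 8.79% had an unadjusted p under 0.05. DESeq2 called 903 or 3.74%, of which 1.98% of all genes were lower, and limma-voom called 0. In edgeR's test IGJ was the single immunoglobulin gene with an unadjusted p under 0.05, against 2 in DESeq2 and 5 in limma-voom, beside 3.87% of all genes that were lower at that p in edgeR's test. The fitted log2 ratio of IGJ, responder to non-responder, was -3.19 ± 0.51 (SE), with an adjusted p = 0.558 in edgeR's test and an adjusted p = 0.000105 in DESeq2. That IGJ is lower in both responders was known when these genes were chosen, so its p-values are no independent support. In a fit of response alone, without the non-responder library after therapy, its ratio was -3.35. Of the other constant genes, IGHA1 had -1.79 ± 0.74 with an adjusted p = 0.580, and IGHD had 1.34 ± 0.58 with an adjusted p = 0.588, in edgeR's test.

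Most markers of B cells were low, and in the responders most were lower after therapy, as the immunoglobulin genes were. CD79A, a signalling chain of the B cell receptor, stood at 1.70 CPM in the responder after and 3.89 CPM in the non-responder after therapy, against 8.08 CPM in the responder before and 4.57 CPM in the non-responder from before therapy. MS4A1, which encodes CD20, had the opposite order over time: 76.8 CPM in the responder after and 54.9 CPM in the non-responder after therapy, against 25.0 CPM in the responder before and 32.5 CPM in the non-responder from before therapy. Its fitted log2 ratio for time was 1.19 ± 0.31 (SE), with an adjusted p = 0.412 in edgeR's test and 0.0169 in DESeq2.

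Over the whole list of 20 B cell markers, the summed level was 113 CPM in the responder after and 96.8 CPM in the non-responder after therapy, against 101 CPM in the responder before and 67.1 CPM in the non-responder from before therapy, and MS4A1 made up most of it in 2 of these libraries. In the responders 14 of the 20 reached 1 CPM, of which 11 were 2-fold lower and 2 higher after therapy, and their median log2 ratio was -1.83, beside 10.5% of all genes lower and 10.6% higher. In the non-responders 13 reached 1 CPM, of which 3 were lower and 4 higher, with a median of 0.60, beside 14.1% of all genes lower and 19.1% higher. The summed constant region genes were thus lower after therapy in both patient groups, although IGHA2 was higher in the non-responders, and the larger part of the B cell markers was lower in the responders. The difference between the groups was not tested, nor was the part of B cells in the immunoglobulin levels.

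The defining plasma cell markers were low. SDC1 had a count in the responder before therapy only, at 2.59 CPM, and so did TNFRSF17, at 0.192 CPM. MZB1 stood at 3.70 CPM in the responder after and 3.83 CPM in the non-responder after therapy, against 3.69 CPM in the responder before and 1.38 CPM in the non-responder from before therapy. Of 13 plasma cell markers, 3 had both responders below both non-responders, as IGJ did, while CD38 and TXNDC5 had both responders above both non-responders. The share of all genes with either order was not computed, so these counts do not set plasma cell markers apart from other genes. CD38 stood at 29.1 CPM in the responder after and 9.42 CPM in the non-responder after therapy, against 25.1 CPM in the responder before and 21.0 CPM in the non-responder from before therapy. TXNDC5 stood at 64.7 CPM in the responder after and 56.4 CPM in the non-responder after therapy, against 63.0 CPM in the responder before and 30.3 CPM in the non-responder from before therapy. The 3 with the order of IGJ were ELL2, FKBP11 and PRDM1. ELL2, a transcription elongation factor, stood at 15.1 CPM in the responder after and 48.4 CPM in the non-responder after therapy, against 8 CPM in the responder before and 31.2 CPM in the non-responder from before therapy. FKBP11 stood at 116 CPM in the responder after and 232 CPM in the non-responder after therapy, against 132 CPM in the responder before and 258 CPM in the non-responder from before therapy. PRDM1, a transcription factor that effector T cells also use, stood at 184 CPM in the responder after and 219 CPM in the non-responder after therapy, against 121 CPM in the responder before and 190 CPM in the non-responder from before therapy. Their part in the IGJ level was not tested. Over the whole list the summed level was 1070 CPM in the responder after and 1260 CPM in the non-responder after therapy, against 937 CPM in the responder before and 1120 CPM in the non-responder from before therapy.

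Plasmacytoid dendritic cells, which transcribe IGJ as well, were also looked for by their markers. LILRA4 stood at 0.518 CPM in the responder after and 5.41 CPM in the non-responder after therapy, against 0.492 CPM in the responder before and 0.0613 CPM in the non-responder from before therapy. CLEC4C had no count in the responder after and 0.983 CPM in the non-responder after therapy, against 0.180 CPM in the responder before and no count in the non-responder before therapy. Over the 10 markers the summed level was 25.3 CPM in the responder after and 150 CPM in the non-responder after therapy, against 32.5 CPM in the responder before and 32.3 CPM in the non-responder from before therapy. The sum was thus high in the non-responder after therapy. In the non-responder before therapy, where IGJ was highest, LILRA4 and CLEC4C were at or near 0, while IRF8 stood at 18.5 CPM and SERPINF1 at 8.79 CPM, its highest level of the 4 libraries. The part of these cells in the IGJ level was not tested.

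Of 15 listed receptors for immunoglobulin, 14 were found. In the non-responders 8 of the 13 receptor genes at 1 CPM were 2-fold higher after therapy and none lower, beside 19.1% of all genes higher. In the responders 4 of 13 were higher and none lower, beside 10.6% of all genes higher. All 10 monocyte and neutrophil markers were 2-fold higher after therapy in both patient groups, with a summed level of 1820 CPM in the responder after and 8730 CPM in the non-responder after therapy, against 109 CPM in the responder before and 180 CPM in the non-responder from before therapy. Their part in the receptor levels was not tested. Of the 3 surrogate light chain and neighbouring genes, IGLL5 reached 1 CPM, with 1.22 CPM in the responder after and 1.09 CPM in the non-responder after therapy, against 1.98 CPM in the responder before and 3.36 CPM in the non-responder from before therapy. Its span covers IGLV2-14 and IGLC1, and it was lower in both libraries after therapy, as the lambda constant genes were.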

How the data were processed

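RNA of sorted CD8+ T cells was made into cDNA with a SMARTer Ultra Low kit and read from both ends, 101 bases each, per the labels' protocols. The tools bcl2fastq 1.8.4 and TopHat2 and the build hg38 are named in the submitters' processing notes. How reads were counted, whether reads that match several genes were kept, and whether strand was used is not given in the sources used here. Overlapping or near-identical genes therefore share an unknown part of their counts. Each deposited file gives whole-number gene counts of 1 library, not normalised, with a position and a coding length for each row, per the file headers. No per-sample column of another series was found.

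Left out of tests were 4146 rows on alternate contigs and 617 sex-informative rows, which leaves 59490. Also left out as members were 43 rows with immunoglobulin names on other chromosomes, with 344 to 935 counts a library. Ratios of 2 libraries used TMM-normalised CPM, a prior count of 0.5 in each library and 95% intervals from the exact conditional binomial. Fits used edgeR 4.0.16 in R 4.3.3 (additive in response and time, filterByExpr, quasi-likelihood F test, two-sided, adjusted over all genes, threshold 0.05, 1 residual degree of freedom). Alternatives with that design were DESeq2 1.42.0 and limma-voom in limma 3.58.1. The SE of a fitted log2 ratio is its size divided by the square root of F. The fit and the intervals were tested on simulated data.

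The genes, the marker lists and the rule for named genes were chosen with earlier results of these data known. The rule takes the constant region genes and IGJ, the 3 most counted variable genes of each locus in each library, the 2 most counted D and J segments, and the 3 largest ratios per direction at 5 CPM in each pair. It took 44 genes, and IGKV1-5 was named after its p-value was seen, as were the neighbouring rows. No sequence is printed.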

Additional observations from a re-analysis of the deposited data

Results flagged for a closer look

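Several values had opposite directions for the same contrast in the 2 patient groups or at the 2 times, with both counting intervals clear of 0. With 1 library a group, none of these differences was tested. For the responder-to-non-responder log2 ratio, after minus before therapy, the difference was -0.55 for the heavy constant sum, with -0.30 after and 0.24 before therapy. It was -2.09 for the kappa constant sum, with -1.72 after and 0.36 before therapy, and -2.13 for IGKV1-8 and -2.23 for IGKV3-11, whose counts cannot be told apart from those of IGKC.

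For the after-to-before log2 ratio, responder minus non-responder, the difference was -1.24 for the lambda variable sum, with -0.09 in the responders and 1.14 in the non-responders, and -1.99 for IGLV2-14. It was -5.39 for IGHA2, which was high in the non-responder after therapy alone, with -2.73 in the responders and 2.66 in the non-responders. It was -3.25 for IGKJ1 and -3.63 for IGKV3-20. For IGHV3-23 and IGHV4-34 both contrasts had opposite directions, with a difference of -4.08 for IGHV3-23 and of -5.30 for IGHV4-34. For IGHV4-39 it was -6.59, a value that depends on the prior count, since that gene had no count in the non-responder before therapy. The variable genes named here had at most 152 counts in any library, except the kappa rows IGKV1-8 and IGKV3-11 and the lambda row IGLV2-14.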

How the results depend on the processing

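No paired analysis was possible because each group is 1 library, and the labels do not tie libraries from before and after therapy to one patient. With IGKV1-8 and IGKV3-11 left out, an alternative chosen after seeing the data, the variable gene log2 ratio was 0.13 for responder against non-responder after therapy (-0.35 with them) and 1.03 before therapy (0.66), and for after against before therapy -0.40 in the responders (-1.23) and 0.49 in the non-responders (-0.22). The sign after therapy and that in the non-responders therefore rest on these 2 rows. Under library size scaling alone, the responder-to-non-responder ratio before therapy was 0.29 for constant and 0.74 for variable genes, and the after-to-before ratio in the responders was -2.30 for constant and -1.33 for variable genes.

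Immunoglobulin genes at least 2-fold apart, responder against non-responder after and before therapy and after against before therapy in the responders and the non-responders, numbered 9, 12, 15 and 16 at 1 CPM and 79, 100, 110 and 84 with no minimum level. As shares of the immunoglobulin genes at each level these are 56.2%, 48.0%, 71.4% and 72.7% at 1 CPM, beside 22%, 29.8%, 21.1% and 33.2% of all genes, and 75.2%, 77.5%, 80.3% and 84.0% with no minimum, beside 45.4%, 50.9%, 43.1% and 49.8%. At 4-fold and 5 CPM, 1, 2, 4 and 0 were apart, beside 4.35%, 4.43%, 2.75% and 7.65% of all genes. DESeq2 called 903 genes for response and 1509 for time, limma-voom called 2 for time, and edgeR with no filter on low counts called 2 for time. Leaving out 1 library at a time, in a model of 1 factor, called 0 genes for response and 0 for time, and the fitted IGJ ratio ranged from -3.35 to -3.03.

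Per base of coding length, a scale added after seeing the data, shares in the responder after, non-responder after, responder before and non-responder before therapy were 35.6%, 66.2%, 55.4% and 40.1% for kappa, 53.8%, 39.1%, 66.1% and 42.5% for IgM, 5.60%, 8.62%, 10.7% and 31.0% for IgG and 9.37%, 45.3%, 4.59% and 15.8% for IgA. IgD was 31.2% in the responder after, 18.0% in the responder before and 10% in the non-responder before therapy. The leading gene was also taken without overlapping rows and without rows whose names mark them as pseudogenes or orphons. In the same order, it held 52.6%, 62.5%, 38.8% and 73.2% of heavy, 56.7%, 81.7%, 38.0% and 69.9% of kappa and 47.7%, 48.6%, 39.1% and 18.1% of lambda variable counts, since fewer rows are left. These shares rest on few counts and are given without intervals, so they do not show that a gene dominates. The leading heavy row held 10, 5, 26 and 30 counts in that order. IGKV3-20, the leading kappa row of the responder after therapy, held 17. The leading heavy row of the responder after therapy held 13.5% when only rows marked by name as pseudogenes were left out, with IGHV3-32 kept. The kappa share has no value there, since the IGKC row overlaps others. Without mitochondrial and contig counts, immunoglobulin genes took 0.00536%, 0.00814%, 0.0176% and 0.0133% of the counts.

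Among the 149 ratios of named genes, none left its interval of counting error under another scaling or a prior count of 2, but these intervals are wide or open for genes with few counts, and the prior count of 2 shifted ratios by -1.97 to 1.96 on the log2 scale. For the 100 ratios with 10 counts in both libraries the shift was -0.17 to 0.15. Depth limits genes with few counts: of 358 genes, 25 had 10 counts in all 4 libraries.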
